A study of Mus musculus with 5 samples.

Results

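The nuclear-encoded subunits of the mitochondrial respiratory chain were followed in whole embryonic mouse kidneys with and without activated Notch1 in nephron progenitors. Members were genes whose symbols carry the numbered or lettered names of a subunit of NADH dehydrogenase (complex I), succinate dehydrogenase (complex II), the cytochrome bc1 complex (complex III), cytochrome c oxidase (complex IV) or ATP synthase (complex V), without assembly factors and pseudogenes. Ndufab1, a complex I subunit whose symbol does not have that form, was not a member and is given with the carriers. This gave 84 of the 32793 genes in the deposited tables, with 35 in complex I, 4 in complex II, 9 in complex III, 20 in complex IV and 16 in complex V. Ndufa4 and its paralogue Ndufa4l2 were counted with complex IV, where the Ndufa4 protein is now placed in spite of its symbol.

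RNA of whole kidneys at embryonic day 15.5 was sequenced in bulk. NICD_mut kidneys (2 libraries) carried Six2TGC/+, a Cre driver active in nephron progenitors, and RosaN1ICD∆PEST, a Rosa allele from which Cre releases an activated Notch1 without its PEST domain. NICD_wt kidneys (3 libraries) came from littermates that carried the same Rosa allele without Cre. The driver was present in every NICD_mut library and in no NICD_wt library, so its effect and that of activated Notch1 cannot be told apart. The labels do not say that libraries came from separate animals, so p-values measure only how far these samples spread, and that spread may be technical.

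Respiratory chain complexes I, III and IV pass electrons from NADH to oxygen and pump protons across the inner mitochondrial membrane, complex II feeds in electrons from succinate, and complex V uses the proton gradient to make ATP. Most subunits are encoded in the nucleus and a small core in mitochondrial DNA, so that the complexes are built from transcripts of both genomes. In the mature kidney the proximal tubule and the thick ascending limb are rich in mitochondria, whereas nephron progenitors are known to rely more on glycolysis. The mitochondrially encoded subunits were not analysed here.

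Libraries held 17361823 to 21356447 estimated counts. Notch1 had 288 and 324 CPM (counts scaled to library size) in NICD_mut libraries, against 127, 142 and 120.2 CPM in NICD_wt libraries. Nephron progenitor markers summed to 88.6 and 51.7 CPM in NICD_mut and 686 to 705 CPM in NICD_wt, with 7 of 8 lower by the test below, and the 9 loop of Henle and distal tubule markers summed to 8.77 and 7.84 CPM in NICD_mut, against 466 to 546 CPM in NICD_wt. Proximal tubule markers summed to 1419 and 1570 CPM in NICD_mut and 628 to 757 CPM in NICD_wt, with 7 of 10 higher and 2 lower (Cubn at -0.87 and Slc22a6 at -0.45 on the log2 scale). Ureteric and collecting duct markers, 7 of 7 lower, summed to 75.7 and 70.5 CPM in NICD_mut and 317 to 356 CPM in NICD_wt. By the same test 24.8% of all tested genes were lower and 23% higher. Leukocyte markers, 4 of 5 higher (Csf1r, Cd68, Adgre1 and C1qa), summed to 112 and 113 CPM in NICD_mut and 42.4 to 45.1 CPM in NICD_wt. The other, Ptprc, had 6.47 and 5.77 CPM in NICD_mut, against 8.26, 9.12 and 6.50 CPM in NICD_wt. It did not pass, at -0.38 on the log2 scale. Skeletal muscle transcripts stood out in NICD_mut 1, where 12 markers summed to 3653 CPM, and to a lesser degree in NICD_wt 1, with 171 CPM, against 26.2 CPM in NICD_mut 2 and 20.7 and 23.2 CPM in NICD_wt 2 and 3.

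Most subunit genes of all 5 complexes were lower in NICD_mut kidneys. Of the 81 members with enough counts to test, 63 fell, 1 rose and 17 missed the threshold. The test was the quasi-likelihood test of edgeR, and a call needed a p under 0.05 after Benjamini-Hochberg adjustment over 15885 genes. Across all tested genes 24.8% fell and 23% rose. The median log2 fold change of the members was -0.37, against 0.013 over all tested genes, and 74 of the 81 values were negative. The shift was shallow, since the steepest of the lower members, Ndufa12, had a log2 fold change of -0.69. CPM values of both NICD_mut libraries lay below those of all 3 NICD_wt libraries for 67 tested members and above them for 3, where 34.2% and 32.9% of all tested genes did so.

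All members together took 0.947% and 0.958% of the counts in NICD_mut libraries, against 1.24%, 1.20% and 1.24% in NICD_wt libraries. On the TPM scale, which also corrects for transcript length, they took 2.98% ± 0.03 in NICD_mut (SD, n = 2) and 3.59% ± 0.06 in NICD_wt (SD, n = 3). The ranges of the 2 groups did not overlap on either scale. In bulk tissue, fewer cells of a type that is rich in these transcripts and less of them per cell cannot be told apart. The part of the segment, progenitor and leukocyte markers in this shift was not tested.

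**Figure D1:**
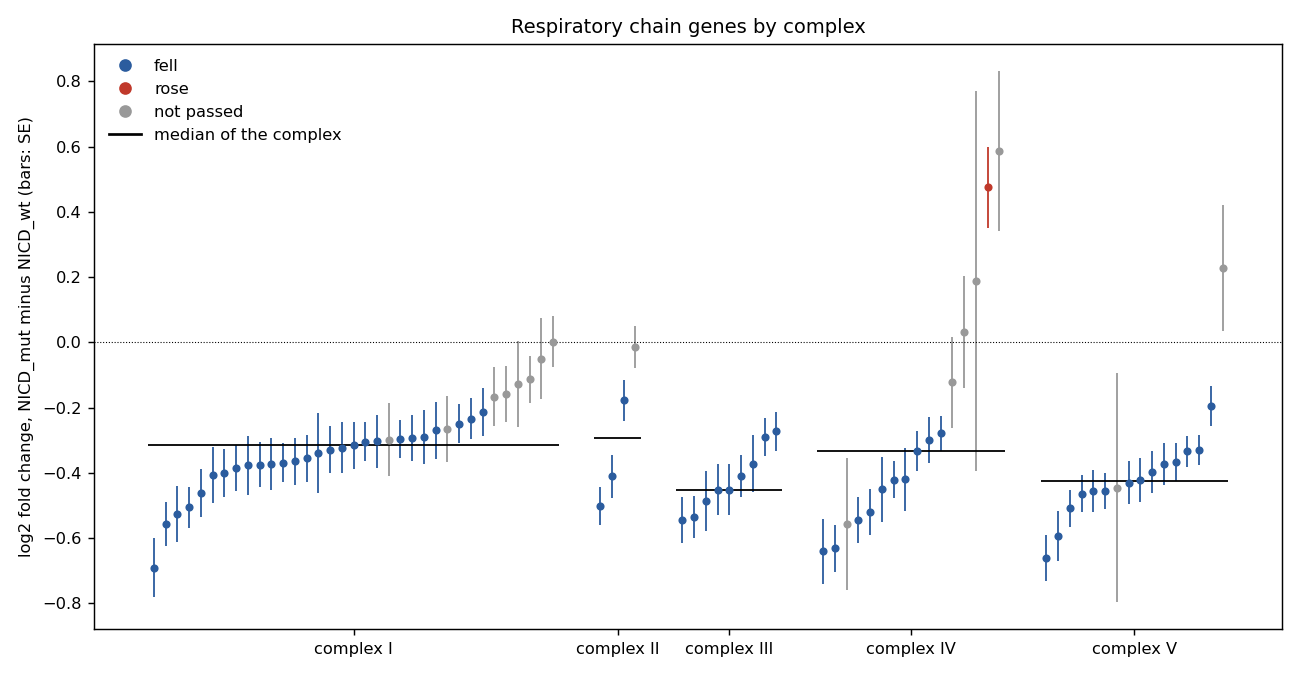
Log2 fold change (NICD_mut minus NICD_wt, vertical axis, edgeR fit on counts) of each tested member, grouped by complex and ordered by value; vertical bars are SE and horizontal lines the median of a complex. The 63 points that fell lie between -0.69 and -0.18, and Ndufa4l2 in complex IV is the only point that rose; Cox6a2, at 4.47 with an SE of 2.70, is off the scale and left out. With an offset for length and abundance the complex IV median turns to 0.045.

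Transcript length moved with this result. Relative effective length, taken as CPM over TPM per gene, had a median of 0.275 for tested members against 1.6 for all tested genes, and 59 of the 81 members (72.8%) were in the shortest decile of all tested genes. Over all genes in that decile the median log2 fold change was -0.21 and 34.2% fell, while in the longest decile it was 0.16 and 17.9% fell. Among genes with a mean of at least 10 CPM, other genes in the shortest decile had a median of -0.29 with 49% lower, against -0.37 with 47 of 59 lower for the members there. In the next decile other genes had a median of -0.15 with 39.3% lower, against -0.40 with 10 of 11 lower for the members. The 6 members in longer deciles all fell. Among the members themselves the log2 fold change and effective length had a Spearman rho of 0.093 (n = 81 genes that share the same libraries). Over all tested genes this rho was 0.14.

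Calls moved with abundance as well, in both directions. In the highest decile of CPM 39.7% of genes fell and 27.9% rose, and 21 of the 22 members there fell. In the lowest decile 6.42% of genes fell and 11% rose. The median log2 fold change of all genes was 0.37 in the lowest decile, -0.040 in decile 5 and -0.075 in the highest. When each library's trend of log2 CPM on effective length was taken out as an offset, 36 members fell (44.4%, against 25.3% of all genes) and their median log2 fold change was -0.15. When the trend on length and abundance was taken out together, 21 members fell (25.9%, against 24% of all genes) and the median was -0.091, so the share of lower members was then close to that of all genes. These offsets were added once results had been seen, and what part of the shift in the members comes from length or abundance was not tested further. An offset for each gene's own effective length in each library left 64 lower members (79.0%, against 23.2% of all genes). It corrects only for changes of a gene's length between libraries. A trend between genes of different length is not taken out by it.

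**Figure D2:**
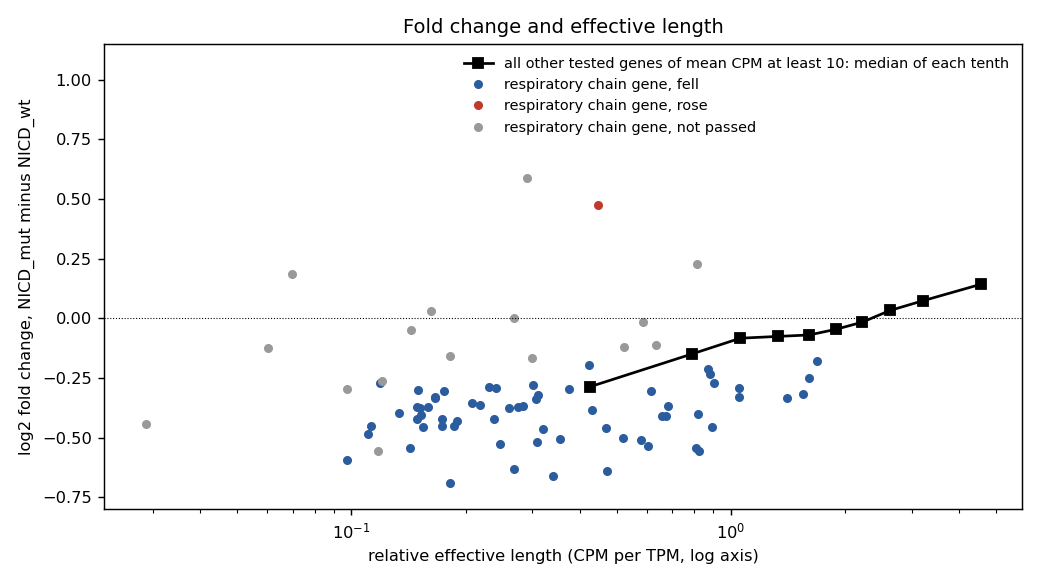
Log2 fold change (NICD_mut minus NICD_wt) against relative effective length (CPM per TPM, log axis) for the tested members (points) and the median of all other tested genes of at least 10 CPM in deciles of length (squares, at the median length of each decile). Members sit at the short end of the axis, and the line of squares runs from -0.29 in the shortest decile to 0.14 in the longest; Cox6a2 at 4.47 is left out.

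The TPM table gave the same direction on a shifted scale. With limma on log2(TPM + 1), 54 of 83 members fell (65.1%, against 18.7% of all genes). Their median was -0.24 where the median of all genes was 0.11, which puts the members 0.34 below all genes on this scale. With the same fit 28.9% of all genes rose, as did 2 members. Of the genes called, 60.7% were higher in NICD_mut with TPM and 48.1% with counts.

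Single libraries were left out in turn. Of the tested members 77.8% fell without NICD_mut 1 (against 23.1% of all genes) and 72.0% without NICD_mut 2 (against 25.5%). The shares were 71.2% without NICD_wt 1 (against 20.3%), 76.5% without NICD_wt 2 (against 21.7%) and 71.6% without NICD_wt 3 (against 19.6%). Of all genes 25.2% fell with library size in place of the scaling factors, where 77.8% of members did. With a pseudocount of 0.1 on TPM, and without a filter, 28.5% and 20.3% of all genes rose.

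A set of 20 members fell under all 20 settings tried, the length and abundance offset included. The share of all tested genes that did so was not computed. Without that share, whether this set sets the members apart was not tested. Under the length and abundance offset alone 25.9% of members fell, against 24% of all genes. The 20 members were Ndufa12, Ndufb5, Ndufb6, Ndufs3, Ndufs4, Ndufs8 and Ndufv2 of complex I, Sdhb of complex II, Cyc1 and Uqcrq of complex III, Cox5a, Cox7a2, Cox7b and Ndufa4 of complex IV, and Atp5a1, Atp5c1, Atp5e, Atp5f1, Atp5g1 and Atp5o of complex V. At the other end, 13 of the tested members fell under none.

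**Figure D3:**
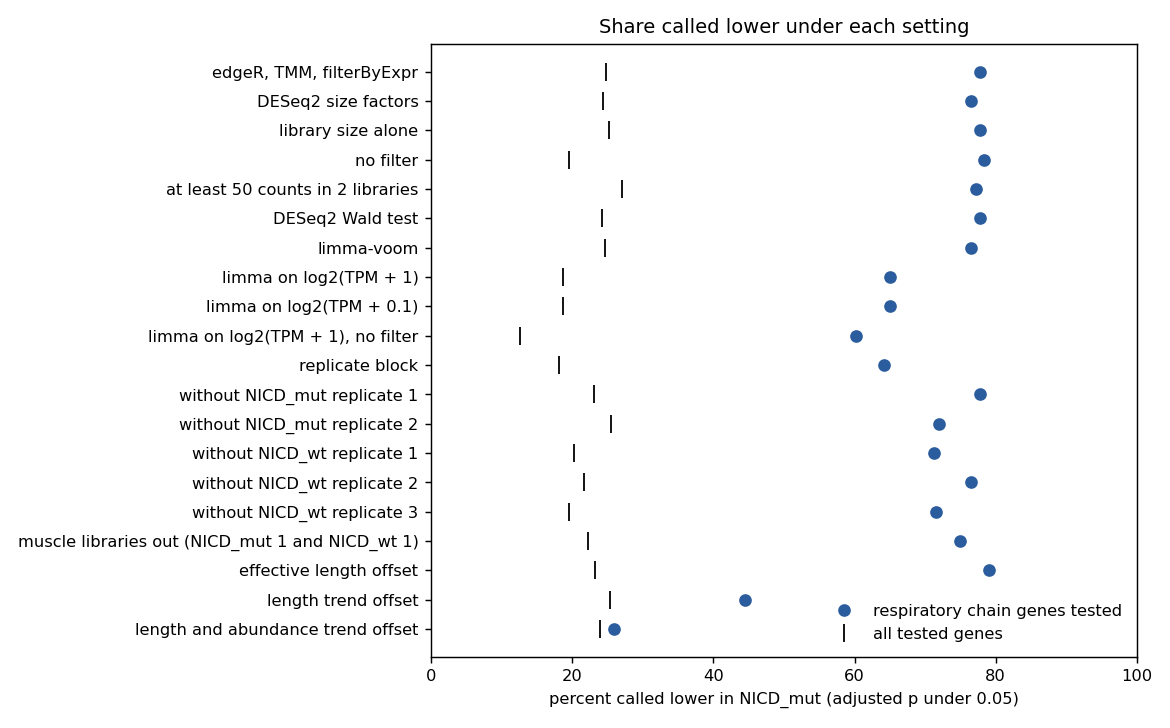
Share of tested members (circles) and of all tested genes (vertical ticks) called lower in NICD_mut at an adjusted p under 0.05, in percent, for each of the 20 settings. Circles lie between 60.2% and 79.0% except with the length trend offset (44.4%) and with the length and abundance trend offset (25.9%), where the circle comes close to the tick at 24%.

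Some members share promoter elements, which the choice by symbol did not use. NRF1, GABPA and YY1 are transcription factors known to act on many nuclear respiratory genes in mammals. Windows of 300 bases, from 250 before to 50 after the start, were at hand for 68 of the 84 members (73 windows, RefSeq, GRCm38.p6). The NRF1 element was searched on both strands as GCGCA and GCGC with 1 open base between them. It was present in 24.7% of member windows, against 4.60% of all 32851 promoter windows and 8.75% of those of tested genes. With T at the open base, which makes it a palindrome and is counted in the shares above, it was present in 6.85% of member windows, against 0.971% of all and 1.82% of those of tested genes. The ETS element of GABPA, CCGGAAG, was present in 21.9% of member windows, against 8.86% of all windows and 15.2% of those of tested genes. The YY1 element AAGATGGCG was present in 9.59% of member windows, against 1.40% of all and 2.54% of those of tested genes. A match is a run of letters and not a measured binding site.

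Each of the next 5 sequences is a window of 100 bases before the start of a member that fell, with the NRF1 element or the GABPA element in capitals. They were chosen as windows with a match and at most 1 base in an annotated exon, so that at least 1 of them comes from each of complexes I, III, IV and V. All lie on the minus strand and are written 5′ to 3′ in the direction of the gene, from RefSeq on GRCm38.p6.
Ndufs5, chr4:123718225-123718324, NRF1: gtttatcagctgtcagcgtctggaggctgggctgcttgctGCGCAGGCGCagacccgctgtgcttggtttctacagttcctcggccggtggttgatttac
Uqcrh, chr4:116075071-116075170, GABPA: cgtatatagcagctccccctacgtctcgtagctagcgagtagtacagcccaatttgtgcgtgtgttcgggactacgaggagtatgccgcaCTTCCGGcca
Cox6a1, chr5:115349016-115349115, NRF1: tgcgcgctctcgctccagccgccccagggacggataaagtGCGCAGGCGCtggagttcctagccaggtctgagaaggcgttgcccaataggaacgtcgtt
Atp5h, chr11:115420001-115420100, NRF1: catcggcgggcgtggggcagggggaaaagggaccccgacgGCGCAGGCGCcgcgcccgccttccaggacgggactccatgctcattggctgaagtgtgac
Atp5e, chr2:174464144-174464243, GABPA: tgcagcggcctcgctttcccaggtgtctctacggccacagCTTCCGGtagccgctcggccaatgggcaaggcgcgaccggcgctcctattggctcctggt

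The NRF1 match ends 88 bases before the annotated start in Ndufs5, 107 in Cox6a1 and 131 in Atp5h, and the GABPA match ends 3 bases before it in Uqcrh and 95 in Atp5e. Of the factors themselves, Nrf1 had 48.4 and 50.1 CPM in NICD_mut, against 63.7, 65.5 and 66.7 CPM in NICD_wt, and fell by 0.41 on the log2 scale (SE 0.07, edgeR adjusted p = 0.00111). Yy1 fell by 0.19 (adjusted p = 0.0498, edgeR). Gabpa did not pass, with a log2 fold change of -0.16 (adjusted p = 0.116, edgeR). These 3 were looked up for their motifs, after their values had been seen.

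All 5 complexes shifted in the same direction. Median log2 fold changes were -0.32 for complex I, -0.29 for complex II, -0.45 for complex III, -0.33 for complex IV and -0.43 for complex V. Summed TPM of the NICD_mut mean over the NICD_wt mean was 0.873 for complex I, 0.900 for complex II, 0.804 for complex III, 0.821 for complex IV and 0.807 for complex V. Differences between complexes were not tested, and the values of their members overlap. With the length and abundance offset the medians were -0.074, -0.12, -0.12, 0.045 and -0.11 in the same order of complexes, so that of complex IV changed sign.

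**Figure D4:**
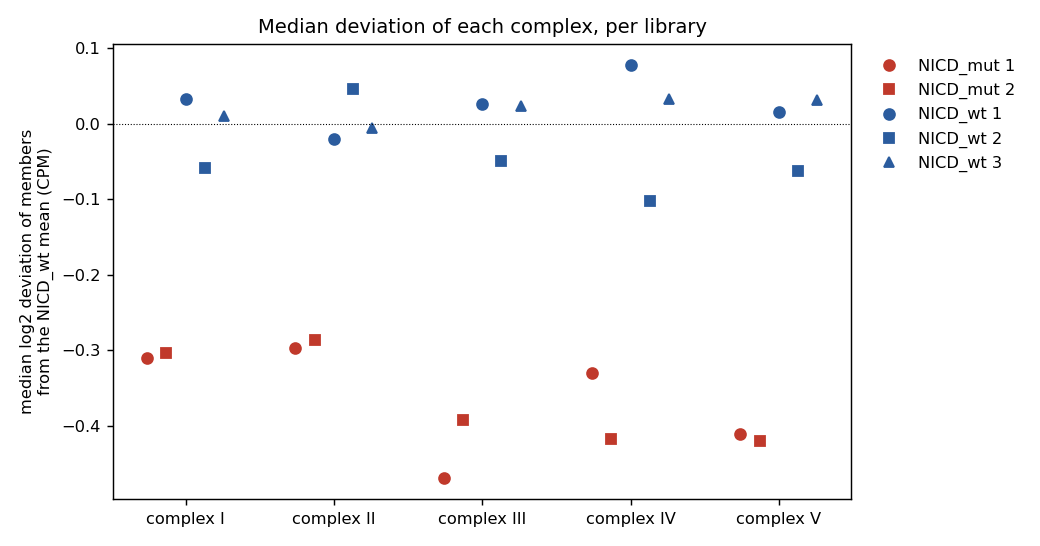
Median over the tested members of each complex of the log2 deviation from the NICD_wt mean (CPM, vertical axis), with 1 symbol per library, NICD_mut in red and NICD_wt in blue. NICD_mut medians lie between -0.47 and -0.29 and NICD_wt medians between -0.10 and 0.08 in every complex.

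In complex I 27 of 35 genes fell and 0 rose. Summed TPM was 7540 and 7629 in NICD_mut, against 8537, 8927 and 8611 in NICD_wt. The 7 core subunits, among them Ndufs3, Ndufs8, Ndufv1 and Ndufv2, all fell, with a median log2 fold change of -0.32. Of the supernumerary subunits, which surround the core, 7 of 9 fell in the matrix arm (Ndufa2, Ndufa5, Ndufa7, Ndufa9, Ndufa12, Ndufs4 and Ndufs6). In the membrane arm 13 of 19 fell (Ndufa10, Ndufa11, Ndufb2, Ndufb3, Ndufb5, Ndufb6, Ndufb7, Ndufb8, Ndufb9, Ndufb10, Ndufb11, Ndufc2 and Ndufs5).

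Ndufa12 (chr10:94198720-94221443, plus strand, GENCODE annotation of GRCm38 here and below), a supernumerary subunit of the matrix arm, had 295 and 266 TPM in NICD_mut, against 408, 412 and 436 TPM in NICD_wt. Its log2 fold change of -0.69 (SE 0.09, adjusted p = 0.000325, edgeR on counts) was the lowest of all tested members. Ndufv2, a core subunit with an iron-sulfur cluster, had 108 and 94.1 TPM in NICD_mut, against 138, 134 and 136 TPM in NICD_wt. Both genes had no overlap between the groups, and Ndufv2 fell by 0.56 (SE 0.07, edgeR adjusted p = 0.000203). Ndufs8, a core subunit that carries iron-sulfur clusters on the path to ubiquinone, had 169 and 176 TPM in NICD_mut, against 217, 230.2 and 219 TPM in NICD_wt, and fell by 0.51 (SE 0.06, edgeR adjusted p = 0.000257).

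The other lower members of complex I ran from Ndufb6 at -0.53 to Ndufv1, the flavin-binding core subunit, at -0.21, which fell in 10 of the 20 settings. The exons of Ndufb6 share 39.0% of their bases with Smim27 on the other strand, and whether counting used strand is not given, so its value is uncertain, as is that of Ndufa13, which shares 30.0% with Tssk6. The 8 members that did not pass were Ndufc1, Ndufb4, Ndufa8, Ndufa6, Ndufa3, Ndufa13, Ndufa1 and Ndufv3, with log2 fold changes between -0.30 and 0.0022. Ndufa1, needed for building the complex, had 210.0 and 196 TPM in NICD_mut, against 203, 185 and 196 TPM in NICD_wt, and the groups overlap. Ndufv3, a phosphoprotein of the matrix arm, had 189 and 169 TPM in NICD_mut, against 159, 178 and 169 TPM in NICD_wt, with overlapping groups and a log2 fold change of 0.0022 (SE 0.08, adjusted p = 0.985, edgeR).

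Complex II, which is also an enzyme of the citric acid cycle, was split. Sdhb (chr4:140961203-140979193, plus strand), the iron-sulfur subunit, had 186 and 180.2 TPM in NICD_mut, against 231, 240.1 and 244 TPM in NICD_wt, and fell by 0.50 (SE 0.06, edgeR adjusted p = 0.000168). Sdhd, a membrane anchor, had 199.6 and 202 TPM in NICD_mut, against 231, 259 and 247 TPM in NICD_wt, and fell by 0.41 (SE 0.07, edgeR adjusted p = 0.000921). Both were lower in every NICD_mut library.

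Sdha, the flavoprotein, fell by only 0.18 (SE 0.06, edgeR adjusted p = 0.0441), with 171 and 160.0 TPM in NICD_mut, against 176, 177 and 162 TPM in NICD_wt, and these TPM values overlap. The call for Sdha was made in 8 of the 20 settings and lost in the other 12. Sdhc, the partner of Sdhd in the membrane, did not pass, with a log2 fold change of -0.014 (SE 0.06, adjusted p = 0.871, edgeR). Its TPM values were 241 and 253 in NICD_mut, against 224, 241 and 224 in NICD_wt. Under the length and abundance offset its value was 0.25 (edgeR adjusted p = 0.0083), so the direction of Sdhc rests on the scaling.

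In complex III all 9 genes fell. Summed TPM was 2949 and 3113 in NICD_mut, against 3696, 3863 and 3756 in NICD_wt. Uqcrq, a small subunit at the ubiquinone-binding side, had 91.1 and 98.5 TPM in NICD_mut, against 128, 124 and 129 TPM in NICD_wt, and fell by 0.54 (SE 0.07, edgeR adjusted p = 0.000276). Cyc1 (chr15:76343523-76346260, plus strand), cytochrome c1, which hands electrons to cytochrome c, had 248 and 238 TPM in NICD_mut, against 319, 350.4 and 315 TPM in NICD_wt, and fell by 0.54 (SE 0.06, edgeR adjusted p = 0.000188).

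Neither gene had any overlap between the groups. Uqcrfs1, the Rieske iron-sulfur protein, had 191 and 202 TPM in NICD_mut, against 232, 248 and 239 TPM in NICD_wt, and fell by 0.41 (SE 0.07, edgeR adjusted p = 0.000911). The other 6 genes, Uqcr10, Uqcr11, Uqcrb, Uqcrh, Uqcrc1 and Uqcrc2, fell by 0.27 to 0.49, with Uqcrc1 and Uqcrc2, the large core proteins, at -0.27 and -0.29. With the length and abundance offset Cyc1 (-0.25) and Uqcrq (-0.36) still passed, and the other 7 did not, with log2 fold changes between -0.16 and -0.058.

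In complex IV 10 of the 11 subunits that are expressed in most tissues fell, with a median log2 fold change of -0.45 over the 11. Cox5a (chr9:57521274-57532426, plus strand), which helps to regulate the enzyme, had 341 and 305 TPM in NICD_mut, against 467, 476 and 442 TPM in NICD_wt, and fell by 0.63 (SE 0.07, edgeR adjusted p = 0.000154). Cox7b had 164 and 152 TPM in NICD_mut, against 229, 202 and 248 TPM in NICD_wt, and fell by 0.64 (SE 0.10, edgeR adjusted p = 0.00112). Both were lower in each NICD_mut library than in any NICD_wt library.

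Ndufa4 had 667 and 729 TPM in NICD_mut, against 936, 963 and 925 TPM in NICD_wt, and fell by 0.54 (SE 0.07, edgeR adjusted p = 0.000301). Cox7a2 had 194 and 219 TPM in NICD_mut, against 264, 278 and 275 TPM in NICD_wt, and fell by 0.52 (SE 0.07, edgeR adjusted p = 0.000399). Cox8a had 1044 and 1096 TPM in NICD_mut, against 1273, 1433 and 1270.5 TPM in NICD_wt, and fell by 0.42 (SE 0.06, edgeR adjusted p = 0.000351). All 3 are small subunits of the enzyme and none had overlapping groups. Cox5b and Cox6c fell by 0.45 and 0.42.

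The abundant subunits Cox4i1, Cox6a1 and Cox6b1 shifted least of those that fell. Cox4i1, which carries a nucleotide-binding regulatory site, had 1026 and 1063 TPM in NICD_mut, against 1138, 1189.9 and 1179 TPM in NICD_wt, with a log2 fold change of -0.28 (SE 0.05, adjusted p = 0.00272, edgeR). Cox6a1 had 1007 and 1126 TPM in NICD_mut, against 1195, 1309 and 1223 TPM in NICD_wt, and a log2 fold change of -0.33 (SE 0.06, adjusted p = 0.00198, edgeR). Cox6b1, which bridges the dimer, had 776 and 803 TPM in NICD_mut, against 894, 913 and 886 TPM in NICD_wt, and a log2 fold change of -0.30 (SE 0.07, adjusted p = 0.0073, edgeR).

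The groups did not overlap for these 3 genes, but their direction rests on the scaling. With the length and abundance offset their log2 fold changes were 0.074 for Cox4i1, 0.045 for Cox6a1 and 0.057 for Cox6b1, and none passed. Cox7c did not pass with counts at a log2 fold change of -0.56 (SE 0.20, adjusted p = 0.0837, edgeR), with 948 and 898 TPM in NICD_mut, against 1302, 1093 and 1355 TPM in NICD_wt. It passed with the DESeq2 Wald test (adjusted p = 0.00252) and when NICD_wt 2 was left out (edgeR adjusted p = 0.00115).

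Cytochrome c oxidase swaps some of these subunits for isoforms in particular tissues. Cox6a2, Cox7a1 and Cox8b are the forms of heart and skeletal muscle, Cox6b2, Cox7b2 and Cox8c are known from testis, Cox4i2 from lung and from cells at low oxygen, and Ndufa4l2 is a paralogue of Ndufa4 induced at low oxygen and abundant in pericytes. None of the 6 such genes that were tested fell, Cox7a2l (a supercomplex factor) included, where 24.8% of all tested genes fell. In the lowest deciles of CPM, where Cox7a1, Cox6a2 and Cox4i2 lay, only 6.42%, 9.19% and 12.8% of genes fell. The count is therefore not read as a trait of these isoforms.

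Ndufa4l2 was the single member that rose. The gene (chr10:127514967-127517154, plus strand) had 54.2 and 47.3 TPM in NICD_mut, against 30.9, 37.2 and 32.7 TPM in NICD_wt, and both NICD_mut libraries were above all NICD_wt libraries. Its log2 fold change was 0.48 (SE 0.12, adjusted p = 0.0119, edgeR), against -0.54 for its partner Ndufa4. The call was lost without NICD_mut 1 (log2 fold change 0.38, edgeR adjusted p = 0.0529) and without NICD_wt 1 (0.43, edgeR adjusted p = 0.0508). It was also lost without both of these libraries (0.33, edgeR adjusted p = 0.117) and with the replicate block (0.46, edgeR adjusted p = 0.0729). Pericyte and mural markers summed to 1412 and 1050 CPM in NICD_mut, against 587, 727 and 641 CPM in NICD_wt. Within the sum Acta2 had 534 and 113 CPM in NICD_mut, against 153, 218 and 179 CPM in NICD_wt. Acta2, Kcnj8 and Abcc9 did not pass. Of the 7 such markers tested 4 rose, where 23% of all tested genes did, and their part in the Ndufa4l2 result was not tested.

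Cox4i2 had 19.2 and 23.0 TPM in NICD_mut, against 10.1, 14.7 and 14.1 TPM in NICD_wt, also without overlap. Its log2 fold change of 0.59 (SE 0.25, adjusted p = 0.0789, edgeR) did not pass on counts. It passed with limma on log2(TPM + 1), at 0.67 (adjusted p = 0.0214), and with the length trend offset, at 0.79 (edgeR adjusted p = 0.0294). Cox7a2l had 203 and 247 TPM in NICD_mut, against 242, 196 and 237 TPM in NICD_wt, with overlap, and did not pass at -0.12 (SE 0.14, adjusted p = 0.511, edgeR).

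Cox6a2 was found in 2 libraries only. It had 293 counts in NICD_mut 1, 0 in NICD_mut 2, 18 in NICD_wt 1 and 0 in NICD_wt 2 and 3. Cox8b had 58 counts in NICD_mut 1, 0 in NICD_mut 2, 7 in NICD_wt 1 and 0 in NICD_wt 2 and 3. These are the same libraries in which the skeletal muscle markers summed to 3653 and 171 CPM, against 20.7 to 26.2 CPM in the other 3. Cox6a2 passed the filter on low counts through NICD_mut 1 and had no call (log2 fold change 4.47, SE 2.70, adjusted p = 0.273, edgeR), and Cox8b was not tested. The part of muscle tissue in these 2 libraries was not tested beyond these counts. Without both of them 75.0% of members fell, against 22.3% of all genes.

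**Figure D5:**
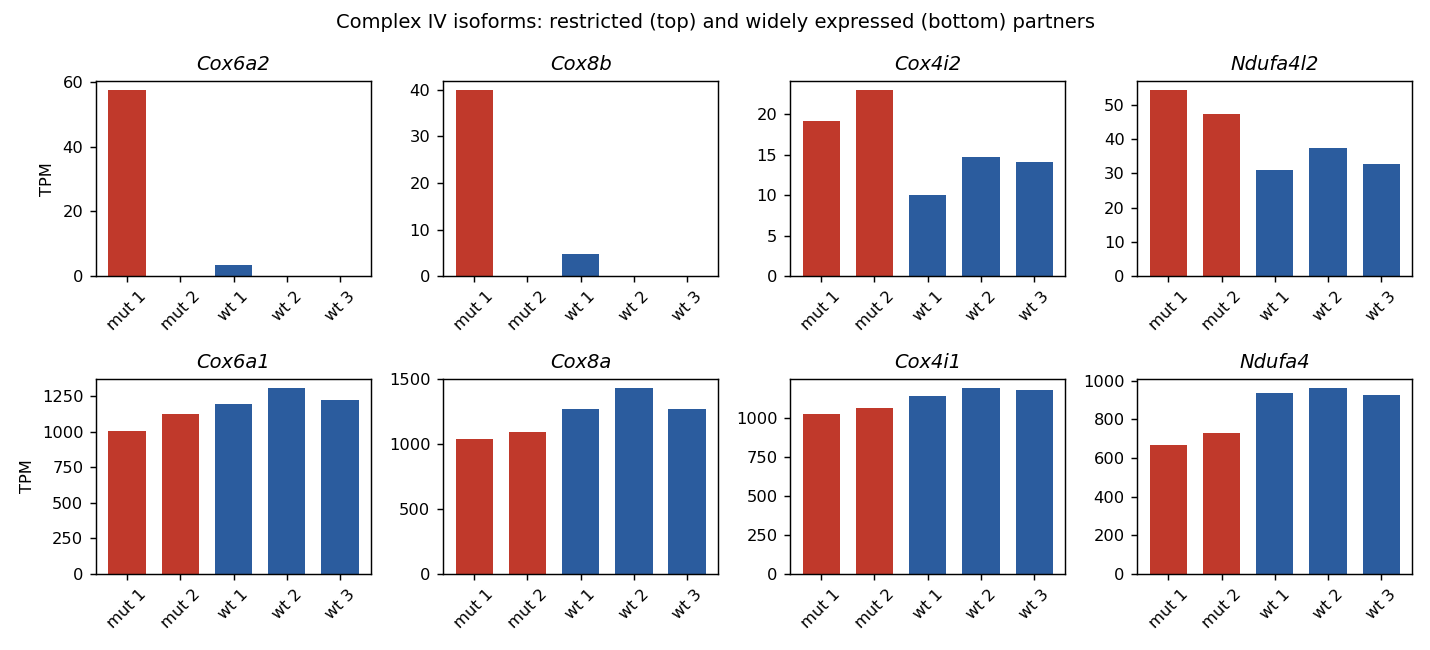
TPM (vertical axes, each starting at 0) of 4 tissue-restricted complex IV genes (top) and of their widely expressed partners (bottom) in each library, NICD_mut in red and NICD_wt in blue. Cox6a2 and Cox8b are present in NICD_mut 1 and NICD_wt 1 only, Ndufa4l2 and Cox4i2 are higher in both NICD_mut libraries, and all 4 partners are lower in both NICD_mut libraries; with the length and abundance offset Cox4i1 and Cox6a1 change sign to 0.074 and 0.045.

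The muscle form Cox7a1 was low in every library, at 27 and 17 counts for NICD_mut and 23, 8 and 22 counts for NICD_wt. It did not follow the muscle markers as Cox6a2 did, and its log2 fold change of 0.19 (SE 0.58, adjusted p = 0.814, edgeR) did not pass. Cox6b2 had 58.0 and 60.5 TPM in NICD_mut, against 55.2, 49.95 and 53.5 TPM in NICD_wt, with a log2 fold change of 0.032 (SE 0.17, adjusted p = 0.895, edgeR). Cox7b2 gave 1 and 0 counts for NICD_mut and 1, 0 and 4 for NICD_wt, and Cox8c had none in any library. Neither could be tested at this depth.

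In complex V 14 of 16 genes fell, among them all 5 of the catalytic F1 head, all 3 of the c ring and all 4 of the peripheral stalk. Summed TPM was 10327 and 10444 in NICD_mut, against 12585, 13157 and 12864 in NICD_wt. In the head, Atp5c1, the central rotor stalk, had 365 and 369 TPM in NICD_mut, against 470.3, 483 and 486 TPM in NICD_wt, and fell by 0.51 (SE 0.06, edgeR adjusted p = 0.000127). Atp5e, a small subunit at the foot of that stalk, had 943 and 936 TPM in NICD_mut, against 1247, 1441 and 1285 TPM in NICD_wt, and fell by 0.59 (SE 0.08, edgeR adjusted p = 0.000319).

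Neither gene had overlapping groups. Atp5a1 and Atp5b, the large subunits that form the catalytic ring, each fell by 0.33, and Atp5b was the most abundant of the members, with 1389.5 and 1408 TPM in NICD_mut, against 1624, 1614 and 1610.3 TPM in NICD_wt. Atp5d fell by 0.20 (SE 0.06, edgeR adjusted p = 0.0286), but its TPM values, 525 and 564 in NICD_mut against 548, 593 and 582 in NICD_wt, overlap. The call for Atp5d was made in 9 of the 20 settings, and its direction rests on the scaling, at -0.034 (edgeR adjusted p = 0.703) with the length trend offset and 0.085 (edgeR adjusted p = 0.304) with the length and abundance offset.

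The c ring, which turns as protons pass, is made from 3 genes that encode the same mature protein. Atp5g1 (chr11:96068852-96075670, minus strand) had 299 and 272 TPM in NICD_mut, against 393, 423 and 429.8 TPM in NICD_wt, and fell by 0.66 (SE 0.07), with the smallest adjusted p of all members (9.54e-05, edgeR). Atp5g2 had 818 and 806 TPM in NICD_mut, against 1003, 987 and 1021 TPM in NICD_wt, and fell by 0.42 (SE 0.07, edgeR adjusted p = 0.000921). Atp5g3 had 1000.2 and 1027 TPM in NICD_mut, against 1206, 1202 and 1205 TPM in NICD_wt, and fell by 0.37 (SE 0.06, edgeR adjusted p = 0.00088). The least abundant of the 3 thus had the steepest fall, and with the length and abundance offset Atp5g2 and Atp5g3 no longer passed, at -0.072 and -0.011.

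In the peripheral stalk, which holds the head still, Atp5f1 had 268 and 272 TPM in NICD_mut, against 342, 341 and 340.0 TPM in NICD_wt, and fell by 0.46 (SE 0.06, edgeR adjusted p = 0.00022). Its partners Atp5o, Atp5h and Atp5j fell by 0.46, 0.43 and 0.37. Of the small membrane subunits Atp5l and Atp5j2 fell by 0.46 and 0.40. The third, Atp5k, was counted 672 and 400 times for NICD_mut and 836, 516 and 671 times for NICD_wt, and did not pass (log2 fold change -0.45, SE 0.35, adjusted p = 0.367, edgeR), although its TPM of 1048 and 999.8 in NICD_mut lay below the 1297, 1421 and 1343 of NICD_wt.

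Atp5k was the shortest tested member, and its CPM per TPM was 0.0300 and 0.0197 in NICD_mut, against 0.0324, 0.0171 and 0.0288 in NICD_wt, so it was low in NICD_mut 2 and NICD_wt 2. Other short members were lower in these libraries too. Ndufa3 had 0.0602 and 0.0474 in NICD_mut, against 0.0663, 0.0449 and 0.062 in NICD_wt. With the offset for each gene's own effective length Atp5k fell by 0.51 (edgeR adjusted p = 0.00257). Atp5s, a proposed coupling factor with 8.68 and 9.12 TPM in NICD_mut, against 6.83, 6.69 and 7.69 TPM in NICD_wt, had a log2 fold change of 0.23 (SE 0.19, adjusted p = 0.361, edgeR) and did not pass.

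Genes that work with the complexes were read from lists set out beside the members. Of the carriers of electrons and substrates 7 of 9 fell and 0 rose, with a median log2 fold change of -0.32, where 24.8% of all tested genes fell. Slc25a5, an exchanger of ADP and ATP, fell by 0.60 (SE 0.05, edgeR adjusted p = 4.55e-05), with 507 and 516 TPM in NICD_mut, against 697, 710.2 and 726 TPM in NICD_wt. Ndufab1, the mitochondrial acyl carrier protein, which is also a subunit of complex I, fell by 0.58 (SE 0.06, edgeR adjusted p = 9.39e-05).

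Of the assembly factors, which build the complexes without staying in them, 7 of 16 fell for complex I, 3 of 10 for complexes II and III, 11 of 21 for complex IV and 3 of 5 for complex V, with medians of -0.26, -0.27, -0.26 and -0.42, and no assembly factor rose. Of all tested genes 24.8% fell, and the 3 of 10 for complexes II and III is near that share. The smallest adjusted p values (edgeR) belonged to Ndufaf4 at -0.70 (0.000832) and Ndufaf5 at -0.77 (0.00144) for complex I. For complexes II and III they were those of Uqcc2 at -0.47 (0.00404) and Uqcc1 at -0.37 (0.00447). For complex IV they were those of Cmc2 at -0.72 (0.00124) and Cox11 at -0.58 (0.00242), and for complex V those of Tmem242 at -0.42 (0.000881) and Fmc1 at -0.72 (0.00249).

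Of 17 genes of the citric acid cycle and pyruvate dehydrogenase 12 fell and 0 rose, with a median of -0.26. The shares over all tested genes were 24.8% lower and 23% higher. Idh3a, the catalytic subunit of the NAD-dependent isocitrate dehydrogenase, fell by 0.81 (SE 0.10, edgeR adjusted p = 0.000284), with 53.3 and 40.3 TPM in NICD_mut, against 76.4, 72.6 and 75.9 TPM in NICD_wt. Cs, citrate synthase, fell by 0.31 (SE 0.05, edgeR adjusted p = 0.00153). The median effective length of this list, 1.31 CPM per TPM, lay nearer to the 1.6 of all tested genes than the 0.275 of the members did.

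Of 21 regulators of mitochondrial biogenesis 10 fell (47.6%) and 0 rose, where 24.8% of all tested genes fell and 23% rose. Their median was -0.19, with a median effective length of 1.93 CPM per TPM. Esrrg, a nuclear receptor that drives oxidative genes, fell by 0.63 (SE 0.10, edgeR adjusted p = 0.000784), with 8.57 and 8.32 TPM in NICD_mut, against 11.6, 13.04 and 11.3 TPM in NICD_wt. Ppargc1a, a coactivator of the same genes, fell by 0.72 (SE 0.12, edgeR adjusted p = 0.000992), with 3.89 and 4.28 TPM in NICD_mut, against 6.41, 6.24 and 5.90 TPM in NICD_wt.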

How the data were processed

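For 5 libraries the authors deposited estimated counts (whole numbers) and TPM by gene symbol. RSEM, Bowtie2 and mm10 are named per the submitters' processing notes. The sources used here give neither tool versions nor the annotation, nor whether counting used strand. Columns were assigned through the sample titles.

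Genes were filtered with filterByExpr (minimum count 10, total 15) and scaled by TMM (0.9964 to 1.0054), which left 15885 genes. NICD_mut was tested against NICD_wt without covariates by the robust quasi-likelihood test of edgeR 4.0.16 in R 4.3.3. A positive log2 fold change means higher in NICD_mut, and its SE is from the fit. CPM are counts over TMM-scaled library size. Effective length was taken as CPM over TPM. The number of libraries limits the precision, and intervals are those of the fit.

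Members and lists were chosen with earlier results of these data known. Named members were the 3 with the smallest adjusted p per complex (2 in complex II), those called against the majority, those called with a log2 change of at least 0.58, and isoform partners; from other lists the 2 with the smallest adjusted p. Others are named to account for the members or for a value that depends on scaling, after their values were seen, and not every member is reported by name here.

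The alternatives replaced TMM by the size factors of DESeq2 or by plain library size, and the filter by none or by at least 50 counts in 2 libraries. Others were the DESeq2 1.42.0 Wald test, limma-voom (limma 3.58.1), limma on log2 values of TPM plus 1 or plus 0.1 (TPM of at least 1 in 2 libraries) or no filter, a replicate block, each library left out, both libraries with muscle transcripts left out, and 3 length offsets (a loess with a span of 0.4, or the effective length itself) added after seeing the data. Counts were simulated for the 15885 genes, with 200 of them changed and no length trend. From these edgeR recovered 33.8%, 61.2% and 87.5% of genes changed 1.5-fold, 2-fold and 4-fold. False calls made up 7.69% of its calls and 20.2% of those of DESeq2. When a length trend of a chosen size was simulated, 63.6% of the edgeR calls were false without an offset and 14.7% with the length offset. Of the unchanged genes 1.52% and 0.143% were then called. The shares of false calls depend on the 200 changed genes and on the size of the trend, so they do not give that share in these data. Gene starts and exons came from RefSeq and GENCODE annotation of GRCm38. Exons of 24 members share bases with another gene. Figures were drawn with matplotlib 3.10.9.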

Additional observations from a re-analysis of the deposited data

How the results depend on the processing

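The count of lower members, 63, stayed within 1.5 times of that value under 17 of 19 alternatives and moved to 36 with the length trend offset and to 21 with the length and abundance trend offset. Leaving out single libraries gave 71.2% to 77.8% of tested members lower, and in those fits a lone NICD_mut library is assumed to vary like the rest. The replicate numbers are not known to pair the libraries (correlation 0.277 over genes, 2 pairs). With the replicate block 52 members fell and 5535 of all genes were called, where 63 members fell and 7583 genes were called without it. The block left Cox4i1 at -0.26 (adjusted p = 0.0518) and Ndufa4l2 at 0.46 (adjusted p = 0.0729) short of the threshold in edgeR, and called Cox6a2 higher at 3.87 (adjusted p = 0.00572).

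The members' median moved to -0.24, -0.25 and -0.24 with log2 TPM at pseudocounts of 1 and 0.1 and without a filter, to -0.15 with the length trend offset and to -0.091 with length and abundance. In complex I the lower members numbered 15 with unfiltered TPM, 12 with the length trend and 8 with length and abundance. With length and abundance 1 member of complex II, 2 of complex III, 4 of complex IV and 6 of complex V fell, and 1 of complex II (Sdhc) rose; with the length trend alone 4 of complex IV fell. Members that rose, all in complex IV otherwise, numbered 2 in each TPM fit and with the length trend (Ndufa4l2 and Cox4i2), 2 with length and abundance (Ndufa4l2 and Sdhc), 0 to 2 with a library left out (the second is Cox8b, without NICD_mut 2), and 0 without both muscle libraries, where Ndufa4l2 was at 0.33 (edgeR adjusted p = 0.117).

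Of 509 repeats over 27 named members, 481 kept direction and call, 15 lost the call, 5 gained it and 8 reversed. The reversals were Cox4i1, Cox6a1 and Cox6b1 with length and abundance (0.074, 0.045 and 0.057), Cox6a2 without NICD_mut 1 (-5.62; up to 5.45 without NICD_mut 2), Cox6b2 without NICD_mut 2 or NICD_wt 2 (-0.017 and -0.068, and up to 0.12 without NICD_wt 1) and Cox7a1 without NICD_mut 1 or NICD_wt 2 (-0.14 and -0.20, and up to 0.46 without NICD_wt 3). Apart from the trend offsets, whose construction removes the length and abundance trends, the cause was not tested. Depth limits Cox7a1, Cox7b2, Cox8b and Cox8c, which had few counts or none.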

Other observations

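Coenzyme Q carries electrons from complexes I and II to complex III. Of 13 genes that make or handle it 7 fell and 1 rose, where 24.8% of all tested genes fell and 23% rose. The median log2 fold change of the list was -0.27. Coq7, a hydroxylase of its synthesis, had 27.4 and 26.5 CPM in NICD_mut, against 39.9, 41.8 and 42.9 CPM in NICD_wt, and fell by 0.62 (SE 0.08, edgeR adjusted p = 0.00039). Coq4 fell by 0.63 (SE 0.11, edgeR adjusted p = 0.00195). The list had 1 member that rose, Coq8a, an atypical kinase of the same pathway, at 0.63 (SE 0.15, edgeR adjusted p = 0.00773), and it was named after its value was seen.

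Proliferation markers fell in 7 of 7 cases and summed to 656 and 639 CPM in NICD_mut, against 1135, 1095 and 1087 CPM in NICD_wt. Erythroid markers summed to 10180 and 11340 CPM in NICD_mut, against 5785, 5130 and 4482 CPM in NICD_wt, with 4 of 7 higher. Over all tested genes 24.8% fell and 23% rose. Ucp1, which defines brown fat, had no count in any library. The other brown fat markers summed to 145 and 178 CPM in NICD_mut, against 168, 164 and 159 CPM in NICD_wt. Most of this was Fabp4, with 130 and 162 CPM in NICD_mut, against 142, 138 and 135 CPM in NICD_wt, and most of the rest Ppargc1a. Cidea, Elovl3, Adipoq and Plin1 had at most 22 counts in any library, so the sum shows no brown fat. The part of these cell types in the levels of the respiratory chain genes was not tested.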
